A study of Mus musculus with 16 samples.

Results

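Endothelial cells of mouse embryos that carried a 12 allele of Notch1 opposite a null allele (12/-) were compared with those of embryos that carried the 12 allele opposite a wild-type allele (+/12). The members were chosen by genotype label alone: 3 libraries of 12/- and 3 of +/12, out of 16 in the series. In the 12 allele the intracellular domain of Notch1 is exchanged for the one of Notch2, so both groups make a Notch1 receptor with a Notch2 intracellular domain, and the groups differ in the other allele. The cells were sorted from whole embryos at embryonic day 9.5 with an antibody to CD31, a surface protein of endothelium, and sequencing libraries were made by tagmentation. According to the labels, the endothelium of +/12 embryos develops normally and that of 12/- embryos is dysfunctional. The sample description of 12/- also mentions a further Notch1 allele without saying which, and the genotype label was followed here. The remaining 10 libraries, 3 each of +/+, +/- and +/vg and 1 of 12/vg, entered the fit and are given beside some results. The vg allele carries an amino acid substitution that makes the released intracellular domain less stable, and the labels give a partial dysfunction for 12/vg. Nothing in the labels says whether a library came from 1 embryo or from several, so the p-values rest on variation from library to library, some of which can be technical.

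Notch receptors are cut at the membrane after a ligand on a neighbouring cell binds them. The released intracellular domain enters the nucleus, joins the DNA-binding protein Rbpj and switches on genes such as those of the Hes and Hey families. In the embryonic endothelium Notch1 is known for arterial identity, for holding back sprouting tip cells, and for the endocardium, whose cells line the heart and form the valve cushions. The question is how endothelial RNA levels differ when the 12 allele has no wild-type Notch1 beside it.

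Levels are given as scaled FPKM, that is read fragments per transcript length and sequencing depth, summed over the transcripts of a gene symbol and divided by a size factor per library. Values are listed for replicates 1, 2 and 3 of a group in that order. Differences are log2 fold changes, 12/- minus +/12, on the scale log2(scaled FPKM + 1), which understates the change of low genes. The threshold for a call was 0.05 on limma's adjusted p (Benjamini-Hochberg over 10550 genes, two-sided).

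The 6 libraries held between 1.11 and 1.80 gigabases of aligned sequence, while +/- replicate 2 (0.189) and the 12/vg library (0.262) were shallow. Over genes, which are no independent replicates, Pearson's r of log2 values was 0.918 to 0.925 for library pairs of the same group and 0.909 to 0.933 for pairs across the 2 groups. Without scaling the median difference of all genes moved from -0.0039 to 0.114 on the log2 scale. Of the endothelial markers, Cdh5, the junctional cadherin, ran from 155 to 243 scaled FPKM in the 6 libraries, and Pecam1, which encodes CD31, from 53.6 to 89.2. Genes of other cell types differed in level from one to the next. Some defining genes were near 0 in all 6: Csf1r of macrophages was at most 0.296, Myh6 of cardiomyocytes at most 0.0861, Pax6 of neural cells at most 0.169 and Afp of endoderm at most 0.204. Other members of the same lists were not near 0: Fcer1g of myeloid cells ran from 8.30 to 36.3, Actc1 of heart muscle from 10.6 to 26.6, Nes of neural progenitors from 17.98 to 38.1 and the epithelial keratin Krt18 from 3.53 to 33.6. Platelet Pf4 was between 321 and 1778. Xist, expressed from the inactive X chromosome, and Eif2s3y, which is Y-linked, were both above 0 in every one of the 6, from 10.7 to 29.7 and from 1.96 to 5.03.

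The edited gene was looked at first. Notch1 (chromosome 2, 26313422 to 26359342, mm9) read 19.7, 16.2 and 15.4 scaled FPKM in 12/- and 14.5, 16.0 and 16.0 in +/12. The groups overlap, and the difference of 0.13 ± 0.15 (log2, SE) was not called (limma adjusted p = 1.0). Notch2 read 4.11, 4.37 and 3.39 in 12/- and 3.89, 4.26 and 4.40 in +/12, a difference of -0.07 ± 0.15 (limma adjusted p = 1.0). The files give 1 transcript for each gene, so these levels cannot tell which allele the RNA came from, and what the null allele lacks is not known here. The 12 allele carries Notch2 sequence. Notch2 ran from 3.39 to 4.40 in the 7 libraries with a 12 allele and from 2.10 to 3.41 in the 9 without one, with the highest of the 9 in the shallow +/- replicate 2.

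Across all genes, 22 were called higher in 12/- (0.209% of those tested) and 0 were called lower (0%). At an unadjusted p under 0.05 in the same limma fit, 351 genes were higher (3.33%) and 208 lower (1.97%). The 3 libraries of 12/- lay above the 3 of +/12 in 837 genes (7.93%) and below them in 722 (6.84%), and 48.2% of all genes had a positive difference. The lists of glycolysis genes and of genes around the hypoxia-inducible factor (HIF) held 11 of the 22. The remaining 11, taken up below in more detail, were in neither list. Whether genes in neither list respond to low oxygen was not tested, and the HIF list had only 24 entries. Among the 10508 tested genes outside both lists, 11 were called higher and 0 lower, while 318 of them (higher) and 208 (lower) had an unadjusted p under 0.05.

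**Figure D1:**
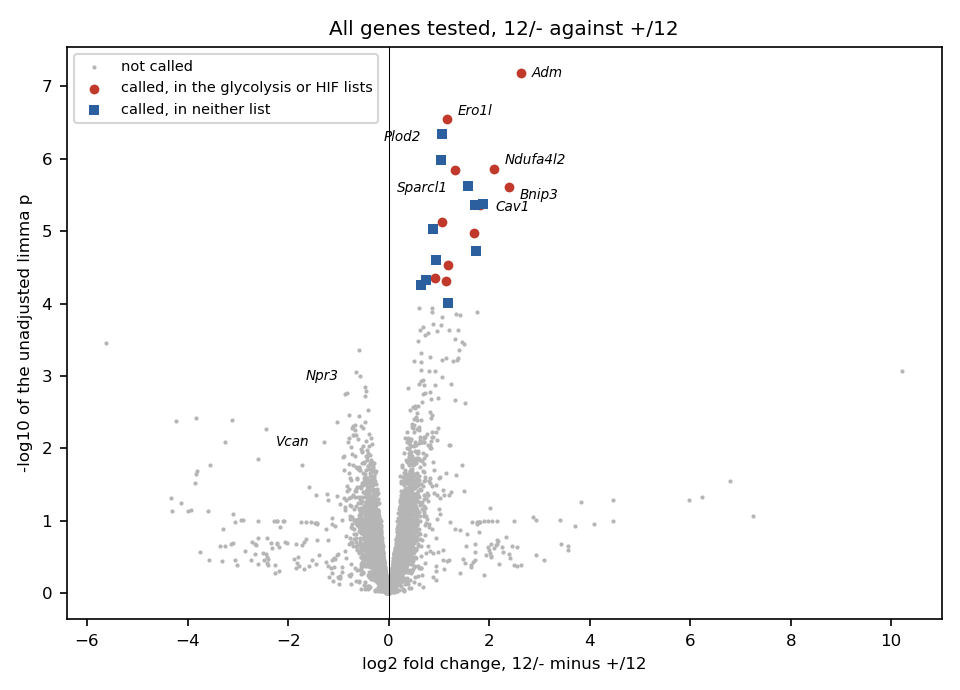
Each point is 1 of the 10550 genes tested, with the log2 fold change of 12/- over +/12 on the x axis and the -log10 of the unadjusted limma p on the y axis; red circles are called genes of the glycolysis or HIF lists and blue squares the other called genes. All 22 called genes lie on the right, while grey points far out to either side at a low height are among the 53 uncalled genes with a larger difference than Adm.

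Size of difference and strength of the test did not go together at the extremes of that plot. The difference was larger than that of Adm, in either direction, for 53 uncalled genes, up to 10.2 on the log2 scale. All 53 have no transcript of 300 nt or more. Among them Mir181b-2, a microRNA gene chosen after its values were seen, was listed at 0 in all 3 libraries of 12/- and read 49.2, 57.7 and 38.9 in +/12. It was called lower with the 6 libraries alone (limma adjusted p = 6.2e-04), with the 9 libraries of low file number (5.9e-04) and with array weights (0.013).

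The 22 calls were not equally firm. Adm, Bhlhe40, Bnip3, Cav1, Ero1l, Fam162a, Kcne3, Ndufa4l2, Plod2, Sparcl1 and Tpi1 were called with any 1 of the 6 libraries left out. The other 11 lost their call at least once, and all of these without 12/- replicate 1, at limma adjusted p from 0.062 for Egln3, Galk1 and Pfkp to 0.32 for Pcsk6. Without 12/- replicate 3, Aldoa, Cxxc5, Egln3, Eif4ebp1, Loxl2, P4ha1, Pcsk6 and Vegfa were not called (limma adjusted p from 0.0607 to 0.18). The same genes with Galk1 and Stc2 were not called without +/12 replicate 1 (0.0529 to 0.162) or +/12 replicate 3 (0.0545 to 0.221). Aldoa, Pcsk6 and Stc2 missed the threshold at 0.0613 each without 12/- replicate 2, and Cxxc5 and Pcsk6 at 0.0752 and 0.145 without +/12 replicate 2. When the 6 libraries were fitted alone, with fewer degrees of freedom, Ndufa4l2 was the only 1 of the 22 still called (limma adjusted p = 0.0302), and the others lay between 0.0532 and 0.273. Every one of the 22 kept a positive difference in all of these fits. The count of genes called higher was 11 with 12/- replicate 1 left out, and 12 each with +/12 replicate 1 or replicate 3 left out. The count called lower was 3 without +/12 replicate 1 and 2 without +/12 replicate 2.

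The 11 called genes of the HIF and glycolysis lists are given here briefly. HIF is a transcription factor that is degraded while oxygen is plentiful, and switches on glycolysis, angiogenic factors and its own inhibitors when oxygen is low. Adm, the vasodilator peptide adrenomedullin, read 18.8, 9.47 and 15.8 scaled FPKM in 12/- against 1.52, 1.57 and 1.23 in +/12. That is 10.2 times higher in the mean and a difference of 2.64 ± 0.24 (limma adjusted p = 6.9e-04). Ndufa4l2, a mitochondrial protein that lowers complex I activity, read 6.62, 4.76 and 4.79 against 0.495, 0.597 and 0.361, which is 11.1 times higher in the mean. Bnip3, a mitophagy receptor, read 35.1, 35.3 and 32.7 against 3.37, 9.99 and 5.28. In all 3 genes the groups were far apart, and in Bnip3 the spread among +/12 libraries was wider than among 12/- libraries.

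Of the 23 HIF pathway genes tested, 8 were called higher and 0 lower, beside 0.209% and 0% of all genes. In this list 20 were positive and the median difference was 1.14, beside -0.0039 over all genes. The genes that encode HIF itself were not among those that rose. Hif1a, the oxygen-regulated subunit, read 8.88, 9.77 and 10.2 in 12/- and 10.2, 10.0 and 11.2 in +/12 (-0.11, and 0.017 without scaling). Epas1, the alternative subunit of endothelium, read 18.7, 16.2 and 17.4 against 17.2, 18.1 and 15.8 (0.03, and -0.016 with TPM scaling). Among the prolyl hydroxylases that mark HIF for degradation, Egln3 rose, at 25.8, 21.8 and 27.1 against 5.55, 11.8 and 4.95. Egln1 read 26.9, 23.7 and 20.2 against 12.6, 16.1 and 13.8 without a call (limma adjusted p = 0.21). Of the 19 glycolysis genes tested, Tpi1, Pfkp and Aldoa were called, 0 were called lower, and all 19 were positive with a median of 0.89. Aldoa, an aldolase, was higher in both of its abundant transcripts, which averaged 279 scaled FPKM in +/12 and 457 in 12/-, and 39.0 and 138.

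The called genes were also looked at for what their promoters share, which the genotype rule did not use. The letters ACGTG, the core of the hypoxia response element that HIF binds, were searched on both strands in windows from 250 bases before to 50 bases after each RefSeq gene start (GRCm38.p6). A gene can have several starts, and it was counted if any of its windows held the core. Of the 22 called genes, 16 had a window in the table, and 10 of these held the core. They were Aldoa, Bnip3, Egln3, Ero1l, P4ha1 and Vegfa of the HIF or glycolysis lists, and Cav1, Fam162a, Galk1 and Kcne3 of neither. The share was 30.4% of the 7346 tested genes with a window and 21.8% of all 27025 genes with one. Called genes were matched to windows by synonym too and tested genes by exact symbol only, so the shares are not fully alike. TGGGAA, the core that Rbpj binds, was in 5 of the 16, against 25.8% of the tested genes with a window. The E-box CACGTG, which contains ACGTG on each strand, was in 2 of the 16, Bnip3 and Galk1, against 12.2%. The stretches around the first core of 3 genes from the HIF list and 3 from neither list are shown to set them side by side, in the direction of the gene and with the core, or its reverse complement CACGT, in capitals.
Bnip3: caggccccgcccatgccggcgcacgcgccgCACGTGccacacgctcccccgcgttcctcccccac
Ero1l: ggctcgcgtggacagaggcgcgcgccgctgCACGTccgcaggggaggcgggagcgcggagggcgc
P4ha1: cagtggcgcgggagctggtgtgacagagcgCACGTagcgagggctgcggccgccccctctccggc
Fam162a: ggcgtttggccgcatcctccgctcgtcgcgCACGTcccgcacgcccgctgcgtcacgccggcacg
Galk1: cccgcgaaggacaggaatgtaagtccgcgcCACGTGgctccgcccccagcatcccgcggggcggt
Cav1: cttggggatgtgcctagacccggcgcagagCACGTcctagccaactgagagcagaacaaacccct
These lie at chr7:138909580-138909644 for Bnip3, chr14:45318601-45318665 for Ero1l, chr16:36071608-36071672 for Fam162a and chr11:116012702-116012766 for Galk1, all on the minus strand, and at chr10:59323250-59323314 for P4ha1 and chr6:17306237-17306301 for Cav1 on the plus strand. A match is a description of letters and does not show binding.

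Enzymes that modify and cross-link collagen were a further group among the called genes. Of 16 genes tested for collagen modification and oxidative folding, 4 were called higher (Plod2, P4ha1, Loxl2 and Ero1l) and 0 lower. Over all genes 0.209% were called higher and 0% lower. The list was chosen with earlier results of these data known. P4ha1 and Ero1l are also in the HIF list, and Plod2 and Loxl2 have likewise been described as induced by low oxygen in other cells. Plod2, which hydroxylates lysines of collagen, read 10.4, 12.5 and 12.1 scaled FPKM in 12/- against 4.44, 5.89 and 4.79 in +/12, a difference of 1.07 ± 0.12 (limma adjusted p = 0.0016). Both of its transcripts were higher in the mean, from 2.95 to 7.33 and from 2.09 to 4.34. Loxl2, a lysyl oxidase that cross-links collagen fibres, read 28.8, 24.8 and 26.4 against 12.0, 15.7 and 12.5 (0.95 ± 0.15, limma adjusted p = 0.0165). P4ha1, the catalytic subunit of collagen prolyl 4-hydroxylase, read 19.4, 15.5 and 20.2 against 5.77, 9.21 and 7.89. Ero1l, which recharges protein disulfide isomerase for disulfide formation, read 19.4, 18.1 and 16.5 against 6.84, 8.07 and 7.55. In all 4 genes every 12/- library lay above every +/12 library, as in all 22 called genes. A call favours such a gap, so it is no further result, and 7.93% of all genes had it.

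None of the other 12 genes of that list was called. P4ha2, a second prolyl hydroxylase subunit, read 9.47, 8.08 and 8.29 against 1.67, 4.59 and 2.31, and with the spread in +/12 it was not called (1.39, limma adjusted p = 0.12), though it was without +/12 replicate 2 (1.69, limma adjusted p = 0.041). Plod1 lay at 0.59 without a call (limma adjusted p = 0.33), with groups that did not overlap. The collagen chaperone Serpinh1 read 143, 141 and 138 against 127, 140 and 135, a difference of 0.07. The median of the 16 was 0.22, well below the 4 called values.

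Basement membrane genes, which encode the sheet of matrix under the endothelium, were mostly positive. Of 16 tested, 1 was called higher and 0 lower (0.209% and 0% of all genes), and 13 were positive, with a median of 0.34. At an unadjusted p under 0.05, 7 were higher and 0 lower, beside 3.33% and 1.97% of all genes. The called member was Sparcl1, a secreted matricellular glycoprotein (chromosome 5, 104508128 to 104543107, mm9). It read 31.1, 22.5 and 25.9 in 12/- against 7.94, 8.71 and 7.74 in +/12, 1.58 ± 0.20 on the log2 scale (limma adjusted p = 0.0032). Among its uncalled neighbours in the list, the nidogen Nid2 read 60.9, 40.6 and 43.2 against 20.01, 32.1 and 28.5 (0.82, limma adjusted p = 0.38). The main type IV collagens Col4a1 and Col4a2 lay at 0.39 and 0.47 with groups that did not overlap. Agrn and Col15a1 went the other way, at -0.26 and -0.27, also with no overlap and no call.

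The other genes of the 11 outside both lists have roles at the membrane, in secretion, in metabolism and in translation. Cav1, the scaffold protein of caveolae, the small pits of the endothelial plasma membrane (chromosome 6, 17256370 to 17291324, mm9), read 29.2, 22.4 and 25.6 against 5.73, 7.55 and 5.49. That is 4.11 times higher in the mean (1.88 ± 0.25, limma adjusted p = 0.0041). The coat protein Ptrf (cavin 1) read 38.0, 30.5 and 32.9 against 20.4, 26.1 and 22.7 without a call (limma adjusted p = 0.56), and the median of the 6 caveolae genes tested was 0.00. Cav1 thus stood apart from the rest of its list in size, with the next largest difference at 0.53. Kcne3, an accessory subunit of potassium channels (chromosome 7, 107325180 to 107333379, mm9), read 88.0, 59.8 and 76.2 against 16.5, 32.1 and 19.4, a difference of 1.71 ± 0.23 (limma adjusted p = 0.0041). All 4 of its transcripts had a higher mean in 12/-, the most abundant from 13.6 to 43.0.

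The next pair are proteins of the secretory pathway. Stc2, a stanniocalcin that is secreted, read 9.27, 7.82 and 6.07 in 12/- against 1.15, 2.01 and 1.70 in +/12, 4.77 times higher in the mean (limma adjusted p = 0.013). Pcsk6, a proprotein convertase that cleaves growth factor precursors, read 4.67, 3.17 and 4.09 against 1.52, 0.986 and 1.04, and it was the call nearest the threshold (limma adjusted p = 0.046). In both genes, as in all 22 called genes, the lowest 12/- library was above the highest +/12 library.

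Fam162a, a mitochondrial membrane protein linked to cell death under low oxygen, read 143, 166 and 148 against 66.7, 85.4 and 69.3 (1.04 ± 0.12, limma adjusted p = 0.0025). Galk1, the galactokinase that feeds galactose into glucose metabolism, read 96.8, 91.2 and 80.8 against 45.5, 51.9 and 47.5 (0.87 ± 0.12, limma adjusted p = 0.0074). Eif4ebp1, which binds the cap-binding factor eIF4E and holds back translation, read 93.2, 82.9 and 92.4 against 53.05, 64.3 and 53.03, the smallest difference among the called genes at 0.65 ± 0.11 (limma adjusted p = 0.028). Cxxc5, a zinc finger protein that binds CpG DNA, read 19.1, 13.9 and 15.5 against 8.90, 9.29 and 9.31 (0.75 ± 0.12, limma adjusted p = 0.025). These 4 genes changed by less than the membrane and secreted proteins. With 1 library left out, Fam162a was called in 6 of 6 fits, Galk1 in 3, Eif4ebp1 in 2 and Cxxc5 in 1.

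**Figure D2:**
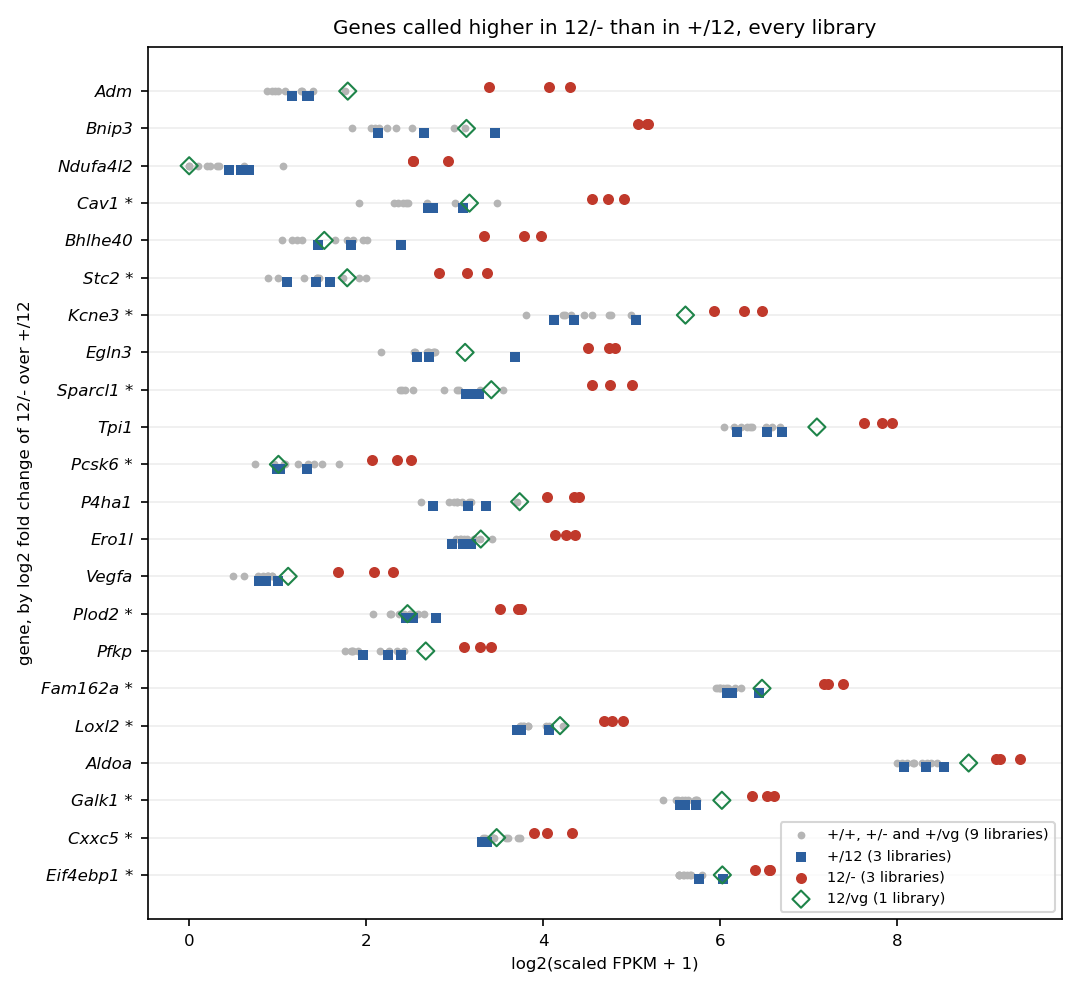
Rows are the 22 called genes ordered by log2 fold change, and the x axis is log2(scaled FPKM + 1) in each of the 16 libraries; an asterisk marks the 11 genes outside the glycolysis and HIF lists. Every red point of 12/- lies to the right of all blue and grey points of its row, and the open diamond of the 12/vg library lies to the right of all 9 grey points in 12 rows.

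In all 22 called genes the 3 libraries of 12/- lay above all 12 libraries of the genotypes described as normal, which happened in 1.91% of all genes. That group includes the +/12 libraries and the comparison shares the 12/- libraries, so it is no separate evidence. The 12/vg library and the 9 libraries without a 12 allele are in neither arm. The 9 did enter the fit's estimate of spread, so they helped decide which genes were called. The counts below are therefore no independent evidence. The 12/vg library has a low file number and most of the 9 have a high one. In 12 of the 22 genes the 12/vg library lay above all 9 (14.6% of all genes did so), and in 19 it lay above their median (47.4% of all genes). Kcne3 was 47.7 in 12/vg and between 13.0 and 30.9 in the 9. Tpi1 was 135 and between 64.9 and 101. Fam162a was 87.8 and between 60.8 and 74.4, and Galk1 was 63.8 and between 39.8 and 52.2. Other called genes did not stand out there: Plod2 was 4.53 in 12/vg and between 3.21 and 5.29 in the 9, Pcsk6 was 1.01 and between 0.675 and 2.23, and Ndufa4l2 was listed at 0. The 12/vg library is 1 shallow library, and no test was made.

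Within +/12 the libraries were not alike in these genes. Replicate 2 was the highest of the 3 in 20 of the 22 called genes, while over all genes it was the highest in 33.1%. Egln3 at 11.8, Bnip3 at 9.99 and Kcne3 at 32.1 in that library show it, with the other two at no more than 5.55, 5.28 and 19.4. The epithelial keratins Krt8 and Krt18 were also highest there, at 23.4 and 33.6 scaled FPKM against at most 12.7 and 17.4 in the other 5 libraries, and their part in these values was not tested. Replicate 2 of 12/- was the lowest of its group in 14 of the 22 genes, against 32.7% of all genes. Without +/12 replicate 2, 28 genes were called higher.

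Uncalled genes with a mean of at least 5 and no overlap of the groups were ranked by p, without small RNA, predicted and pseudogenes. On the higher side the 12 with the smallest p had limma adjusted p from 0.051 to 0.069. Pfkfb3, Pgk1, Pkm2 and Slc16a3 are glycolytic enzymes or a lactate transporter, and Ankrd37 is in the HIF list. The other 7 are described by other roles, and whether they respond to low oxygen was not tested. Odc1, the first enzyme of polyamine synthesis, read 257, 161 and 200 in 12/- against 124, 108 and 103 in +/12 (0.85 ± 0.16). Adora2a, an adenosine receptor, read 27.2, 22.3 and 21.9 against 9.69, 12.0 and 11.5 (1.04 ± 0.20). Eltd1, an adhesion receptor of endothelium, read 15.6, 15.8 and 15.7 against 8.90, 10.1 and 9.12 (0.69 ± 0.13). Upp1, which breaks down uridine, lay at 1.20 ± 0.24, the mitochondrial adenylate kinase Ak4 at 1.34 ± 0.25, the sialyltransferase St3gal1 at 0.61 ± 0.11 and the G protein subunit Gng2 at 0.62 ± 0.12. The 12 were chosen for being uncalled and free of overlap, so neither is a result. Each of them was called in 3 to 11 of the alternatives. Without +/12 replicate 2, St3gal1, Ankrd37, Ak4, Pgk1 and Pkm2 were called (limma adjusted p from 0.0162 to 0.0392), and Odc1 was without 12/- replicate 2 (0.0173).

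Most genes of endothelial identity had a positive difference, and none was called. Of 28 pan-endothelial genes tested, 0 were called in either direction, 22 were positive and the median was 0.22. At an unadjusted p under 0.05, 5 were higher and 0 lower, where 3.33% of all genes were higher, and 10 had groups that did not overlap, all higher, against 7.93% of all genes. Pecam1, the gene of the protein used for sorting, read 89.2, 72.9 and 72.7 in 12/- against 61.8, 54.0 and 53.6 in +/12 (0.46 ± 0.16, limma adjusted p = 0.68). Flt1, a decoy receptor for VEGF, read 51.3, 48.6 and 45.2 against 26.2, 33.9 and 31.7 (0.65 ± 0.15, limma adjusted p = 0.16). Clec14a, an endothelial lectin, read 10.5, 9.88 and 13.2 against 5.71, 7.76 and 6.32 (limma adjusted p = 0.19). Cd34 was on the other side of 0, at 122, 144 and 114 against 141, 135 and 157 (-0.19), with groups that overlapped.

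The tip cell and sprouting list held 2 called genes, Adm and Vegfa, among 21 tested, with 19 positive and a median of 0.50. Both are among the 11 called genes of the HIF and glycolysis lists, so they are no separate calls. Slc2a1 of this list is also in the glycolysis list. Over all genes 0.209% were called higher. Vegfa, the main ligand of endothelial growth, read 3.26, 2.21 and 3.93 against 0.723, 1.00 and 0.821 (1.14 ± 0.19, limma adjusted p = 0.025). Igfbp3, an IGF binding protein, read 133, 73.8 and 93.3 against 22.9, 45.6 and 36.4 without a call (1.499 ± 0.31, limma adjusted p = 0.089). Esm1, Pdgfb and Apln, which mark tip cells, lay at 0.96, 0.90 and 0.71, each with no overlap and no call. The main VEGF receptor Kdr lay at 0.27. Calcrl, the receptor of adrenomedullin, lay at 0.03 and its partner Ramp2 at 0.05, and TPM scaling turned them to -0.023 and -0.0046. Ramp3, the alternative partner, lay at 0.62 without a call (limma adjusted p = 0.99). Cxcr7, a further member of the adrenomedullin list, read 1.02, 1.01 and 1.85 in 12/- against 4.49, 2.37 and 2.20 in +/12. It lay at -0.78 ± 0.33 without a call (limma adjusted p = 0.92).

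**Figure D3:**
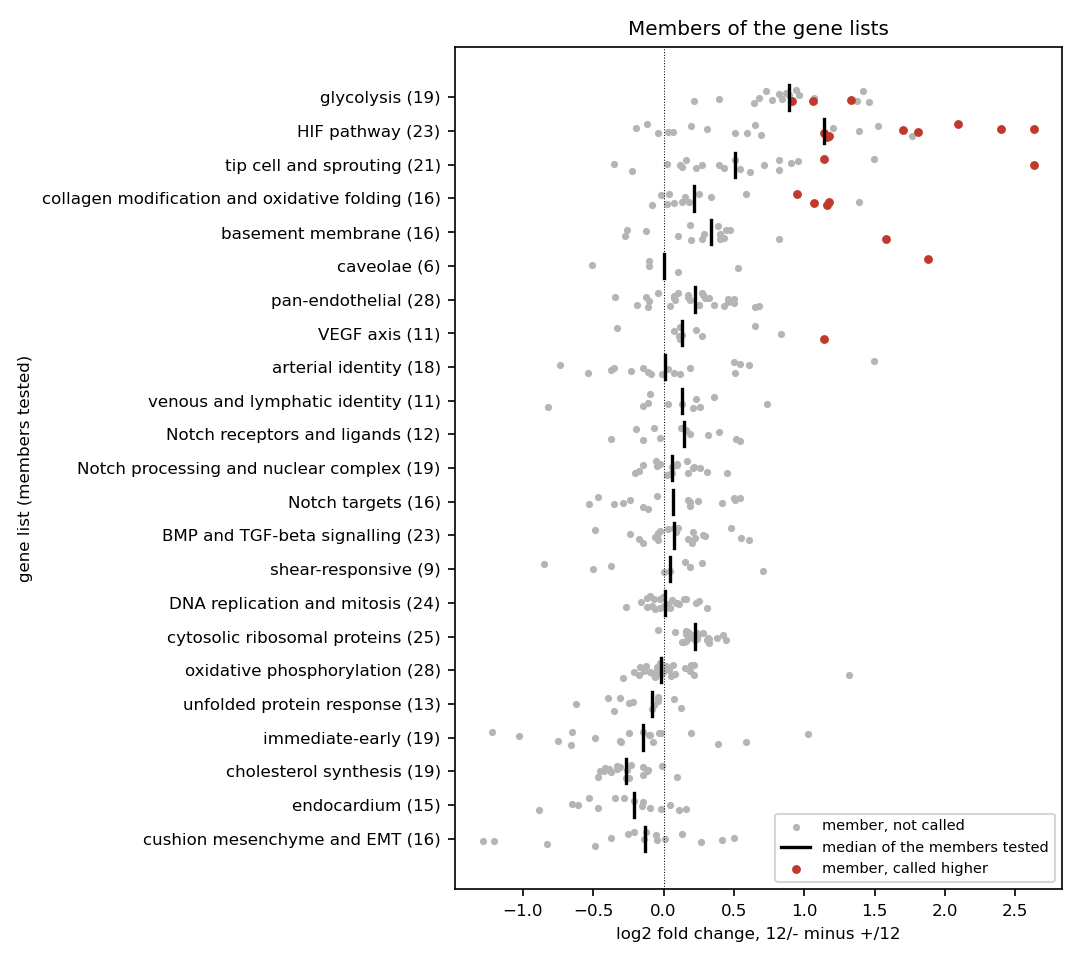
Each point is a tested member of the gene list named on the y axis, with its log2 fold change of 12/- over +/12 on the x axis; red points are called genes and the black bar is the median of the list. Glycolysis and HIF genes have medians of 0.89 and 1.14, the Notch, arterial and cell cycle lists sit around 0, and the endocardial list has a median of -0.21.

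Notch pathway genes did not differ by a call. Of 12 receptors, ligands and Fringe genes tested, 0 were called and the median was 0.14. Of 19 processing and nuclear cofactor genes, 0 were called, with a median of 0.06. Of 16 Notch target genes, 0 were called, 8 were positive and the median was 0.06, and the unadjusted p was under 0.05 for 1 on the higher side and 0 on the lower. Hes1, a repressor switched on by Notch, read 23.3, 20.6 and 18.9 in 12/- against 46.4, 19.9 and 30.8 in +/12 (-0.53 ± 0.27, limma adjusted p = 0.98). The groups overlap through +/12 replicate 2 alone, at 19.9, and the other +/12 libraries lie above all of 12/-. Nrarp, a feedback inhibitor of Notch, read 17.9, 11.5 and 10.4 against 8.01, 11.1 and 9.33 (0.42 ± 0.18), and Hey1 read 47.9, 43.0 and 29.5 against 21.2, 42.2 and 45.2 (0.19), a difference that was -0.15 without +/12 replicate 1. Dll4, a ligand of arterial and tip cells, read 17.6, 9.82 and 11.0 against 5.85, 10.7 and 8.86 (0.54 ± 0.27), and Jag1 read 2.35, 2.16 and 1.92 against 3.40, 2.45 and 3.40 (-0.37 ± 0.18). These 2 ligands lay on opposite sides of 0 and neither was called.

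Arterial and venous identity genes were split. Of 18 arterial genes tested, 0 were called, 9 were positive and the median was 0.01. Bmx, a kinase of arterial endothelium, read 0.829, 0.799 and 0.653 against 2.49, 1.68 and 1.71 (-0.74 ± 0.30, limma adjusted p = 0.86). Gja5, an arterial gap junction protein, read 26.2, 26.7 and 22.1 against 24.3, 47.2 and 42.4 (-0.54 ± 0.25), where +/12 replicate 1 lay inside the range of 12/-. Acvrl1, a BMP receptor, lay on the higher side at 0.61 ± 0.15 (limma adjusted p = 0.21). Of 11 venous and lymphatic genes, 0 were called, with a median of 0.13. Prox1, the master regulator of lymphatic endothelium, read 1.42, 1.69 and 1.54 against 7.13, 2.19 and 2.51 (-0.82 ± 0.34).

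Most endocardial genes had a negative difference, and none was called. Of 15 tested, 0 were called, 12 were negative and the median was -0.21. At an unadjusted p under 0.05, 4 were lower and 0 higher, where 1.97% of all genes were lower, and 6 had groups that did not overlap, all lower, against 6.84% of all genes. The median stayed negative without scaling (-0.08), with TPM scaling (-0.28) and with quantile normalisation (-0.22). It also stayed negative with any 1 of the 6 libraries left out. Npr3, which endocardial cells use to clear natriuretic peptides (chromosome 15, 11769652 to 11835429, mm9), read 6.87, 6.71 and 6.53 in 12/- against 10.8, 11.2 and 11.3 in +/12 (-0.65 ± 0.15, limma adjusted p = 0.16). The transcription factor Hand2 read 6.00, 4.38 and 6.27 against 9.06, 7.65 and 8.48 (-0.53 ± 0.24), and Gata5 read 1.61, 2.66 and 4.22 against 4.77, 4.47 and 4.59 (-0.61 ± 0.28). The cadherin Cdh11 read 1.32, 1.06 and 1.495 against 4.84, 2.32 and 2.88 (-0.88 ± 0.33). Nfatc1, which marks valve-forming endocardium, read 15.9, 14.0 and 16.8 against 17.4, 17.5 and 17.0, a much smaller difference (-0.15). In sorted bulk cells, fewer endocardial cells and less RNA per endocardial cell cannot be told apart.

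Genes of the cushion mesenchyme, which arises from endocardium, held larger single differences and more spread. Of 16 tested, 0 were called and 11 were negative, with a median of -0.13 that turned to 0.01 without scaling. Vcan, the proteoglycan versican of the cushion matrix, read 2.56, 2.08 and 5.84 in 12/- against 15.5, 6.27 and 8.03 in +/12 (-1.28 ± 0.41, limma adjusted p = 0.56). Has2, which makes the hyaluronan of that matrix, read 1.51, 0.878 and 1.72 against 4.62, 1.85 and 3.46 (-0.83 ± 0.21, limma adjusted p = 0.25). Without +/12 replicate 2 it was called lower (-1.10, limma adjusted p = 0.0165). Postn read 0.486, 1.68 and 3.63 against 8.03, 4.67 and 3.41, with overlap (-1.21). The mesenchymal marker Col3a1 read 4.68, 2.46 and 8.71 against 18.9, 7.31 and 10.8, on the same side as Vcan, and its part in these values was not tested.

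**Figure D4:**
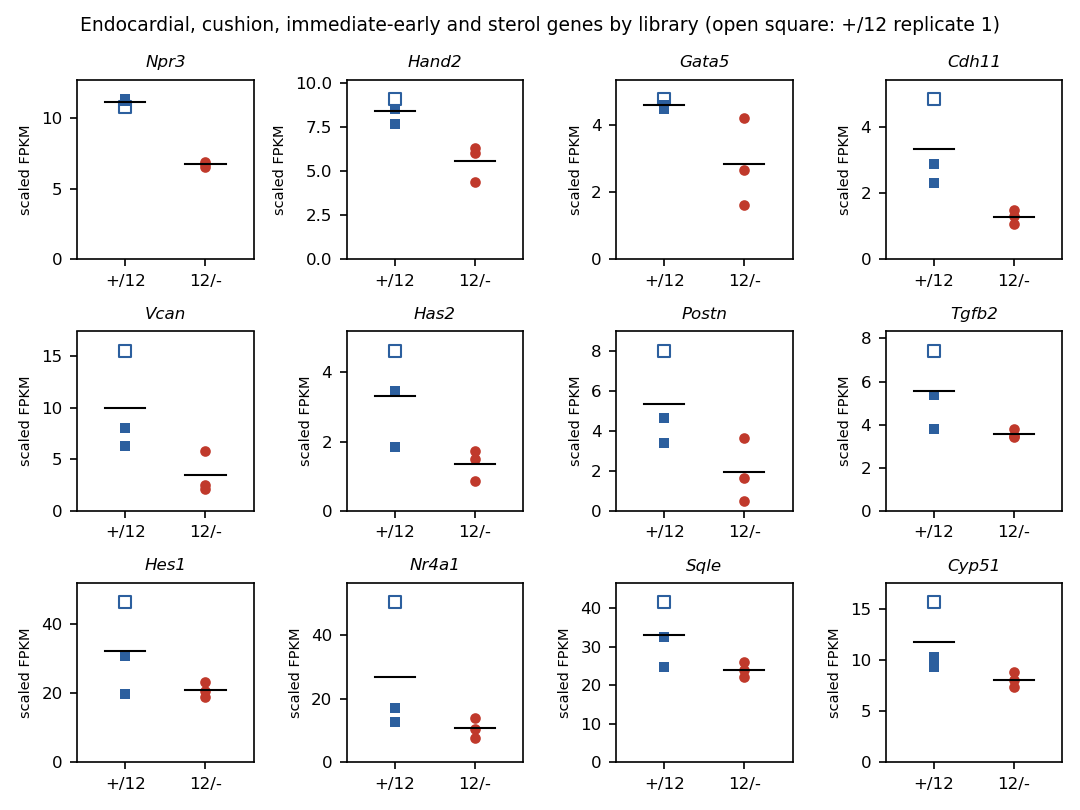
Each panel is 1 gene with scaled FPKM on the y axis from 0, the 3 libraries of +/12 as blue squares, those of 12/- as red circles, and the mean of each group as a bar; the open square is +/12 replicate 1. The 4 endocardial genes shown separate the groups, but they are those with the smallest p in their list, where 6 of 15 tested genes do so. In Vcan, Nr4a1 and Cyp51 the open square lies well above the other +/12 libraries.

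On the lower side too, uncalled genes with a mean of at least 5 and no overlap of the groups were ranked by p. The 12 with the smallest p had limma adjusted p from 0.16 to 0.58, farther from the threshold than those on the higher side. Besides Npr3 and Vcan they were Sumf1, Igfbp5, Lifr, Pik3c2b, Snapc3, Prl3b1, Mtrnr2l, Tmem98, Emid2 and Tnrc6a. Igfbp5, an IGF binding protein, read 11.5, 7.83 and 13.1 in 12/- against 21.5, 21.5 and 17.7 in +/12 (-0.87 ± 0.22), opposite to Igfbp3. Lifr, a cytokine receptor, read 8.56, 10.1 and 9.21 against 11.6, 13.0 and 15.7 (-0.48 ± 0.12). Sumf1, an activator of sulfatases, lay at -0.57 ± 0.14 and the lipid kinase Pik3c2b at -0.41 ± 0.11. Prl3b1, a placental lactogen, read 5.398, 5.14 and 3.29 against 15.6, 7.79 and 8.62 (-1.02 ± 0.29). Mtrnr2l, which resembles the mitochondrial ribosomal RNA, so that reads may be shared with that near-identical copy, read 17789, 23728 and 23378 against 32977, 35087 and 37043. With array weights Npr3, Lifr, Snapc3 and Mtrnr2l were called lower (limma adjusted p from 0.0134 to 0.0448). Mtrnr2l was the most abundant of these genes, and the 10 most abundant genes took 13.6% to 14.8% of all FPKM in 12/- libraries and 16.9% to 17.6% in +/12 libraries.

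Several lists on the lower side followed +/12 replicate 1. That library held the highest value of the 6 in 18 of 19 cholesterol synthesis genes tested and in 12 of 19 immediate-early genes, against 20.9% of all genes. The cholesterol list had 0 called, 1 positive and a median of -0.27, which became -0.07 without +/12 replicate 1. Sqle, an enzyme of that pathway, read 22.1, 24.0 and 26.1 in 12/- against 41.6, 32.7 and 24.9 in +/12, and Cyp51 read 7.38, 8.86 and 8.02 against 15.7, 10.3 and 9.33. Immediate-early genes, which respond within minutes to stimulation or handling, had 0 called and a median of -0.15, and -0.04 without that library. Nr4a1 read 14.1, 7.55 and 10.6 against 50.4, 12.6 and 17.2, and Egr3 read 0.963, 0.282 and 0.667 against 8.38, 1.36 and 1.40. Hes1 and Prox1, above, also had their highest value there, at 46.4 and 7.13. What sets this library apart was not tested.

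The stress and interferon lists held 1 call. Of 13 genes of the integrated stress and amino acid response, Stc2, given above, was called and the median was 0.00. Over all genes 0.209% were called higher. Trib3, a pseudokinase of that response, read 4.69, 1.51 and 3.90 against 1.122, 0.469 and 0.312 without a call (1.37 ± 0.30, limma adjusted p = 0.12), and was called without 12/- replicate 2 (1.72, limma adjusted p = 0.017). Of 13 genes of the unfolded protein response 0 were called and 11 were negative, with a median of -0.09 that was 0.06 without scaling. Its chaperone Hspa5 read 233, 247.9 and 264 against 332, 285 and 309 (-0.31 ± 0.12, limma adjusted p = 0.84), while the oxidase Ero1l of the same compartment had risen. Of 7 interferon-stimulated genes 0 were called, with a median of -0.26, and of 10 p53 targets 0 were called, with a median of -0.10.

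Of the growth and energy lists outside glycolysis, those of replication and mitosis, of G1 genes and of oxidative phosphorylation had medians close to 0. Of 24 genes of DNA replication and mitosis 0 were called, with a median of 0.01. Of 14 G1 cyclins and CDK inhibitors 0 were called, with a median of -0.04. Without overlap 2 of them were higher and 3 lower, beside 7.93% and 6.84% of all genes. In that list Cdkn1c, an inhibitor of the cell cycle, read 83.4, 55.0 and 101 in 12/- against 164, 143 and 130 in +/12 (-0.89 ± 0.41, limma adjusted p = 0.93), and the groups did not overlap. Of 28 genes of oxidative phosphorylation 0 were called and the median was -0.02. Cox4i2, a cytochrome oxidase subunit that replaces Cox4i1 under low oxygen, read 4.64, 2.93 and 4.75 against 0.566, 1.21 and 1.37 (1.32 ± 0.27, limma adjusted p = 0.083), and Cox4i1 itself lay at 0.22. Of 25 cytosolic ribosomal protein genes 0 were called, 24 were positive and 16 had groups that did not overlap, all higher (7.93% of all genes), with a median of 0.23. That median depended on the scaling: it was 0.37 without scaling and 0.06 with quantile normalisation.

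The summed levels of markers of other cell types did not separate the groups. The summed level of the platelet and megakaryocyte list ran from 384 to 1605 scaled FPKM in 12/- and from 584 to 2069 in +/12, with 0 of 10 tested members called. Its median of -0.36 turned to 0.01 without 12/- replicate 1. The erythroid list ran from 82.3 to 335 against 116 to 165, the macrophage list from 16.9 to 50.8 against 21.4 to 36.7, and the cardiomyocyte list from 34.7 to 45.4 against 36.8 to 58.7. The smooth muscle and pericyte list ran from 21.4 to 25.7 against 19.5 to 24.2, the mesenchyme list from 12.5 to 26.8 against 22.8 to 36.3, and the epithelial and endodermal list from 17.5 to 32.6 against 8.06 to 61.4. The neural list, of which Nes alone passed the filter on low values, ran from 27.97 to 39.0 against 20.3 to 30.4. The ranges of the 2 groups overlapped in every one of these 8 lists, and no member was called. All 4 mesenchyme genes tested were negative, with a median of -0.34. Of single members tested, Mrc1 of macrophages was higher in 12/- without overlap and Des of muscle lower. Over all genes 7.93% were higher and 6.84% lower without overlap.

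The alleles differ at the Notch1 locus, so its chromosomal neighbours were looked at as well. Within 5 Mb of Notch1 on chromosome 2, 119 genes were tested, of which 0 were called. At an unadjusted p under 0.05, 4 were higher and 2 lower (3.33% and 1.97% of all genes), and 67 of the 119 were positive with a median of 0.03. The smallest p was that of Snora17, a small nucleolar RNA gene of 132 nt chosen after its values were seen (chromosome 2, 26494710 to 26494841, mm9). It read 6.64, 8.46 and 7.84 against 53.5, 53.5 and 33.1 without a call (limma adjusted p = 0.50). It was called lower without the shallow libraries (limma adjusted p = 0.0021) and with array weights (limma adjusted p = 0.011).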

How the data were processed

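Libraries were grouped by genotype label and numbered in accession order. Per the file headers, the authors deposited cufflinks output, 1 table per library with an FPKM value and a coverage value for each of 28107 RefSeq transcripts. The submitters' processing notes name TopHat2 2.0.9 and mm9. Nothing read here states the cufflinks version, read length or strandedness, so reads of overlapping or near-identical genes cannot be told apart. The deposited coverage is a mean read depth, and divided by FPKM it gave 1 constant per library, the aligned gigabases. Read numbers per gene are unknown, and intervals from counting were therefore not made.

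FPKM were summed over 22096 symbols (Python 3.11.15, pandas 2.3.3), without 211 symbols of a status other than OK (87 of them with a mean FPKM of 1 or more). Median-ratio factors came from 8610 genes at 1 FPKM or more in all libraries. Genes whose mean reached 1 FPKM (10550) were fitted as log2(scaled FPKM + 1) in limma 3.58.1 (R 4.3.3, eBayes with trend), with 16 libraries in 6 groups and 10 residual degrees of freedom. In a simulation from these means and spreads (10449 genes), a log2 change of 1 was called in 69 of 99 genes and a log2 change of 2 in 88 of 99, 0 with the wrong sign, and 8 of 165 calls were false. The simulated noise was normal and independent between genes and libraries. Shifts shared by many genes of a library were not simulated, so the share of false calls in the real data is not known from it.

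Named genes are Notch1, Notch2, the called genes, the 12 uncalled genes per direction with the smallest p among those with a mean of at least 5 and groups that do not overlap (no predicted, pseudo- or small RNA genes), and up to 4 members of each of 41 lists by p. Further list members are named to show a list's spread and were chosen after their values were seen. Of 663 list entries, 663 matched a symbol. The members, lists and rules were chosen with earlier results of these data known. Lists are described by counts and medians without a set test. Promoter windows are those of RefSeq (GRCm38.p6). File names carry a number in a low range for 9 libraries, among them all of 12/-, +/12 and 12/vg, and in a high range for 7, while the labels name no batch. Alternatives were other scalings, pseudocounts, filters, samples in the fit, moderation and weights, a covariate for the number range, and leaving out each library.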

Additional observations from a re-analysis of the deposited data

How the results depend on the processing

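The 22 called genes kept a positive difference in every alternative in which they were tested, and 13 of them were called in at least 20. Of 26 alternatives, 7 of the genes (Adm, Bhlhe40, Ndufa4l2, Pcsk6, Pfkp, Stc2 and Vegfa) had no value in 1, the filter at a mean FPKM of 5. The count of genes called higher, 22 as reported, was 37 with a pseudocount of 5, 37 without symbols under 300 nt, 39 without the shallow libraries and 51 without both, the last combination chosen after seeing the data. It was 34 with robust moderation, 34 with the file-number range as a covariate and 81 with array weights. It fell to 2 with the 6 libraries alone and to 2 with the 9 libraries of low file number, fits with fewer samples, and to 5 with 12/- replicate 3 as the only 12/- library, which is then assumed to vary like the other groups. With each of the 6 libraries left out in turn it ranged from 11 to 28. The count called lower, 0 as reported, was 11 with array weights and 1 each with the 6 libraries alone, without the shallow libraries, with the 9 libraries, with the covariate and with 12/- replicate 3 alone, and it ranged from 0 to 3 with 1 library left out. Apart from what is stated, the cause of these shifts was not tested.

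Differences near 0 changed sign: Notch1 to -0.011, Ramp2 to -0.058 and Hey1 to -0.21 with 12/- replicate 3 alone, Notch2 to 0.048 and Hif1a to 0.017 without scaling, Ramp2 to -0.0046, Calcrl to -0.023 and Epas1 to -0.016 with TPM scaling, and Calcrl to -0.011 and Mtrnr2l to 0.00 with quantile normalisation. With 1 library left out, Notch2 ranged from -0.13 to 0.016, Ramp2 from -0.0061 to 0.11, Epas1 from -0.019 to 0.082 and Hey1 from -0.15 to 0.39. No paired analysis was possible because the labels give no replicate numbers for these genotypes and the numbers used here are accession order only. Depth is known only as aligned gigabases, so the counting error of low genes is unknown.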
